A study of Mus musculus with 6 samples.

Results

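The genes described here encode 10 proteins of the zymogen granule, the vesicle in which the acinar cell of the pancreas stores digestive enzymes, and of the machinery that releases it. They were read in RNA of the whole pancreas from 3 Pdx1Cre;Sirt1ex4F/F mice, in which exon 4 of the deacetylase gene Sirt1 is deleted by a Cre recombinase under the Pdx1 promoter, and 3 Pdx1Cre control mice, which carry the same Cre and a wild-type Sirt1. All 6 animals were 6-month-old males, and each pancreas was hybridized to 1 GeneChip Mouse Gene 2.0 ST array. Recombination reaches exocrine and endocrine pancreatic cells, while vessels, stroma and immune cells in the same RNA lie outside the Cre lineage. The study describes recombination by this Cre line as mosaic, above all in exocrine tissue, so some acinar cells of the Sirt1-deficient mice may carry an intact Sirt1, and their share was not measured here. The Cre came from the strain B6.FVB-Tg(Ipf1-cre)6Tuv/J and the floxed allele from B6;129-Sirt1tm1Ygu/J. The members were Rab3d, Rab27b, Vamp8, Vamp2, Stx3, Snap23, Sycn, Zg16, Gp2 and Cuzd1, and each was taken from the transcript cluster (the probes that the array assigns to 1 transcript unit) that carried its symbol alone. All 10 were measured, among 22180 genes tested. Rab3d alone had several clusters, and its brighter cluster was kept.

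Digestive enzymes are packed in the Golgi into granules that gather under the apical membrane of the acinar cell. When cholecystokinin or acetylcholine raises cytosolic calcium, the granule membrane fuses with the apical membrane and with neighbouring granules. Small GTPases of the Rab family mark the granule and guide it to the membrane, and SNARE proteins on the granule (R-SNAREs) and on the target membrane (Q-SNAREs) zip together and drive the fusion. Other proteins are packed with the enzymes or coat the inner face of the granule membrane.

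None of the 10 genes passed at an unadjusted p under 0.01 from limma, the threshold of the study's methods, where 1.63% of all genes tested passed. None passed at an unadjusted p under 0.05 either, where 6.66% of all genes did, and none passed after Benjamini-Hochberg adjustment over all genes (lowest adjusted p = 0.78, limma), where 0.0135% of all genes did. The log2 fold changes, Sirt1-deficient minus control, ran from -0.21 for Snap23 to 0.24 for Stx3. The 95% confidence intervals of all 10 together stayed between 0.716-fold and 1.42-fold. With the standard errors of this fit, a member would have passed from a change of 1.24-fold (Sycn) to 1.36-fold (Rab27b) upward. For Sycn that is 0.31 log2 units, but Sycn lay only 0.048 to 0.098 below the highest value on each array. Whether the arrays could record a rise of that size was not tested. A comparison of 3 with 3 pancreata cannot give an exact permutation p under 0.1. The limma p-values rest on the spread between these pancreata, drawn for each gene towards the spread of all genes. They cover no spread beyond these animals.

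The 4 cargo and membrane proteins of the granule had the smallest differences. Sycn encodes syncollin, a protein of the granule lumen attached to the membrane. Its log2 values were 13.70, 13.70 and 13.70 in control mice and 13.71, 13.71 and 13.68 in Sirt1-deficient mice. The groups overlapped, and the difference was 0.0022 (standard error 0.096, 95% interval 0.862-fold to 1.16-fold, limma). Gp2 encodes the main glycoprotein of the granule membrane, which is held by a lipid anchor. It read 13.26, 13.25 and 13.27 in control mice and 13.26, 13.22 and 13.30 in Sirt1-deficient mice. The Sirt1-deficient values lay on both sides of the control values, with a difference of 0.0021 (standard error 0.097, 95% interval 0.86-fold to 1.17-fold).

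Zg16 encodes a lectin thought to link the enzymes to the proteoglycans of the granule membrane. Its values were 13.29, 13.35 and 13.35 in control mice and 13.40, 13.38 and 13.40 in Sirt1-deficient mice. The groups did not overlap, but the difference was only 0.064 (standard error 0.097; limma p = 0.529, exact 2-sided permutation p = 0.1). Cuzd1 encodes a granule membrane protein with CUB and zona pellucida domains. It read 12.39, 12.34 and 12.39 in control mice and 12.49, 12.30 and 12.53 in Sirt1-deficient mice. The lowest and the highest value were both Sirt1-deficient, and the difference was 0.07 (standard error 0.11, limma p = 0.531, exact permutation p = 0.4).

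**Figure D1:**
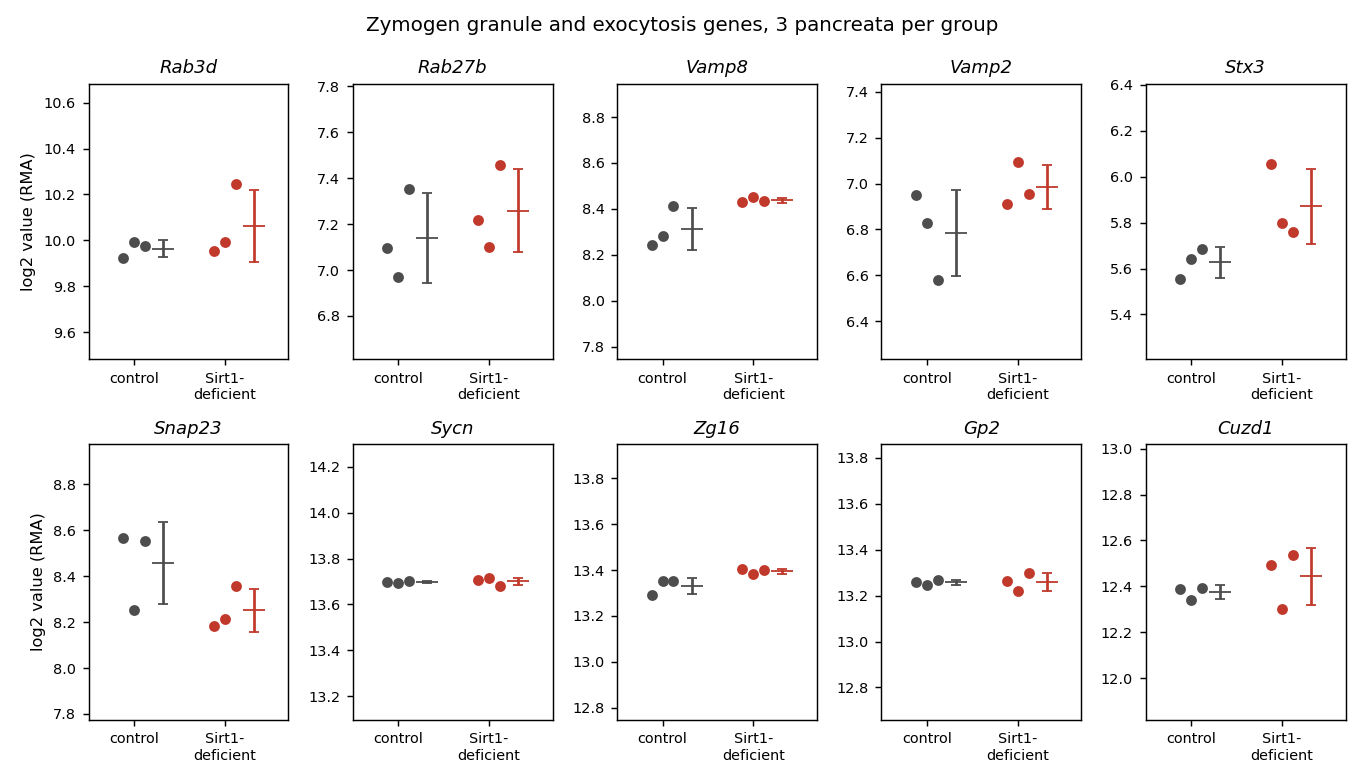
Log2 expression values (RMA, vertical axis) of the 10 granule and exocytosis genes in 3 control (grey) and 3 Sirt1-deficient (red) pancreata. Each point is 1 pancreas, the bar beside the points is the group mean with its SD (n = 3), and every panel spans the same number of log2 units; only Vamp8, Stx3 and Zg16 show groups that do not overlap.

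The near-equal values of the cargo genes were read at the upper end of the array scale. The highest value of any cluster was 13.78, 13.79 and 13.79 on the control arrays and 13.76, 13.76 and 13.76 on the Sirt1-deficient arrays. Sycn lay 0.0814 to 0.098 below it in control mice and 0.0479 to 0.0755 below it in Sirt1-deficient mice. The groups did not overlap in either measure, and why was not tested. On each array 42 to 44 genes were at or above Cuzd1. The normalization gave all arrays the same distribution of probe values, so a gene that keeps its place among the brightest receives nearly the same value on each array. The SD within groups was 0.012 for Sycn, 0.025 for Zg16, 0.029 for Gp2 and 0.091 for Cuzd1. Its median was 0.029 over the 43 genes at least as bright as Cuzd1 on average and 0.155 over all genes. Whether the probes of these genes were saturated, or the normalization removed a difference in abundance, was not tested. Because limma draws each gene's spread towards that of all genes, the standard errors of the cargo genes exceed what their own values show. When the expected spread was allowed to depend on brightness, the standard error of Sycn was 0.034 and its 95% interval 0.951-fold to 1.05-fold. For Zg16 that fit gave a standard error of 0.037 and an interval of 0.987-fold to 1.11-fold, and Zg16 did not pass.

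**Figure D2:**
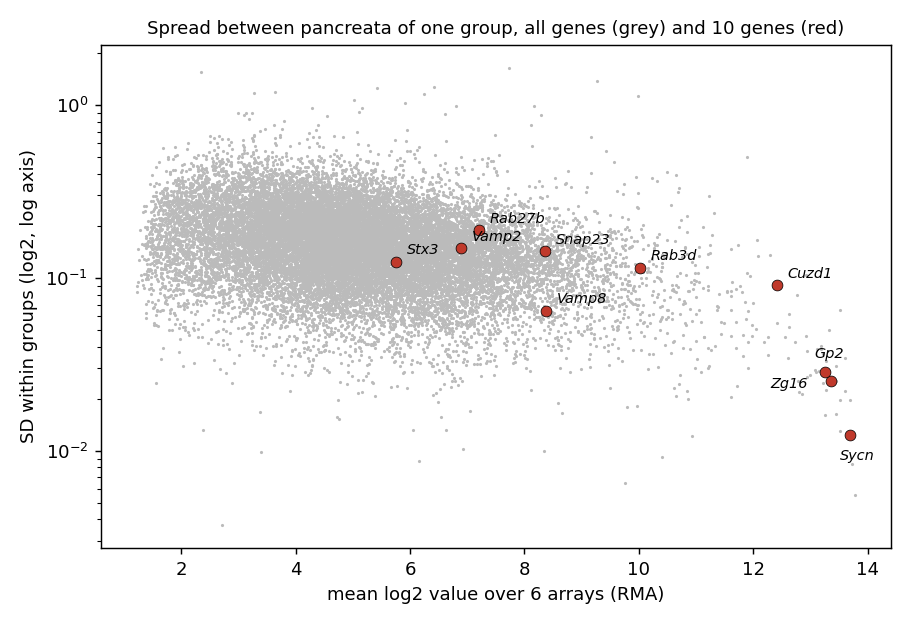
SD within groups (vertical, log axis) against the mean log2 value over the 6 arrays (horizontal) for all 22180 genes (grey) and the 10 granule and exocytosis genes (red). Sycn, Gp2 and Zg16 sit at the bright end, where the spread between pancreata is far below its median of 0.155 over all genes.

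Rab3d, a GTPase of the mature granule, and Rab27b, which marks granules for docking, differed by less than the spread between pancreata. Rab3d read 9.92, 9.99 and 9.98 in control mice and 9.95, 9.99 and 10.24 in Sirt1-deficient mice. The Sirt1-deficient mouse 3 was the highest, while mouse 1 lay within the control range and mouse 2 at its upper edge, for a difference of 0.10 (standard error 0.11, limma p = 0.405, exact permutation p = 0.4). Without that pancreas the log2 fold change was 0.0092. The second Rab3d cluster had a mean of 5.18, against a limit of 4.66 set by olfactory receptor genes, which are largely silent in pancreas, and it gave a log2 fold change of 0.14 (standard error 0.12).

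Rab27b values were 7.09, 6.97 and 7.35 in control mice and 7.22, 7.10 and 7.46 in Sirt1-deficient mice. The groups overlapped over most of their range, and the difference was 0.12 (standard error 0.14, 95% interval 0.875-fold to 1.35-fold, limma p = 0.409, exact permutation p = 0.5). Rab27b had the widest spread of the 10 genes, an SD within groups of 0.188. Sirt1-deficient mouse 3 had the highest value of all 6 animals for both GTPases.

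The SNARE genes held the largest differences of the 10, in both directions. Vamp8, the R-SNARE of zymogen granules that serves most of the stimulated enzyme release in mouse acini, read 8.24, 8.28 and 8.41 in control mice and 8.43, 8.45 and 8.43 in Sirt1-deficient mice. Every Sirt1-deficient value was above every control value, but the nearest were 8.43 and 8.41. The difference was 0.13 (standard error 0.10, limma p = 0.251, exact permutation p = 0.1). Vamp2, the R-SNARE of synaptic vesicles and of insulin granules that is also found on a part of the zymogen granules, read 6.95, 6.83 and 6.58 in control mice and 6.91, 7.09 and 6.95 in Sirt1-deficient mice. The groups overlapped through the control mouse 1, and the difference was 0.20 (standard error 0.12, limma p = 0.142, exact permutation p = 0.2).

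Stx3, the syntaxin of the zymogen granule membrane, had the lowest p of the 10. Its values were 5.55, 5.64 and 5.68 in control mice and 6.06, 5.80 and 5.76 in Sirt1-deficient mice. The groups did not overlap, and the Sirt1-deficient mouse 1 stood above the other 2. The difference was 0.24 (standard error 0.12, 95% interval 0.987-fold to 1.42-fold; limma p = 0.065, adjusted p = 0.78, exact permutation p = 0.1), and it was 0.15 without that pancreas. Snap23, which provides a pair of helices to the fusion complex outside neurons, was the sole member with a negative difference. It read 8.57, 8.25 and 8.56 in control mice and 8.18, 8.21 and 8.36 in Sirt1-deficient mice. The control mouse 2 lay inside the Sirt1-deficient range, and the difference was -0.21 (standard error 0.12, 95% interval 0.716-fold to 1.05-fold, limma p = 0.126, exact permutation p = 0.2). Without that pancreas the difference was -0.31 and did not pass.

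**Figure D3:**
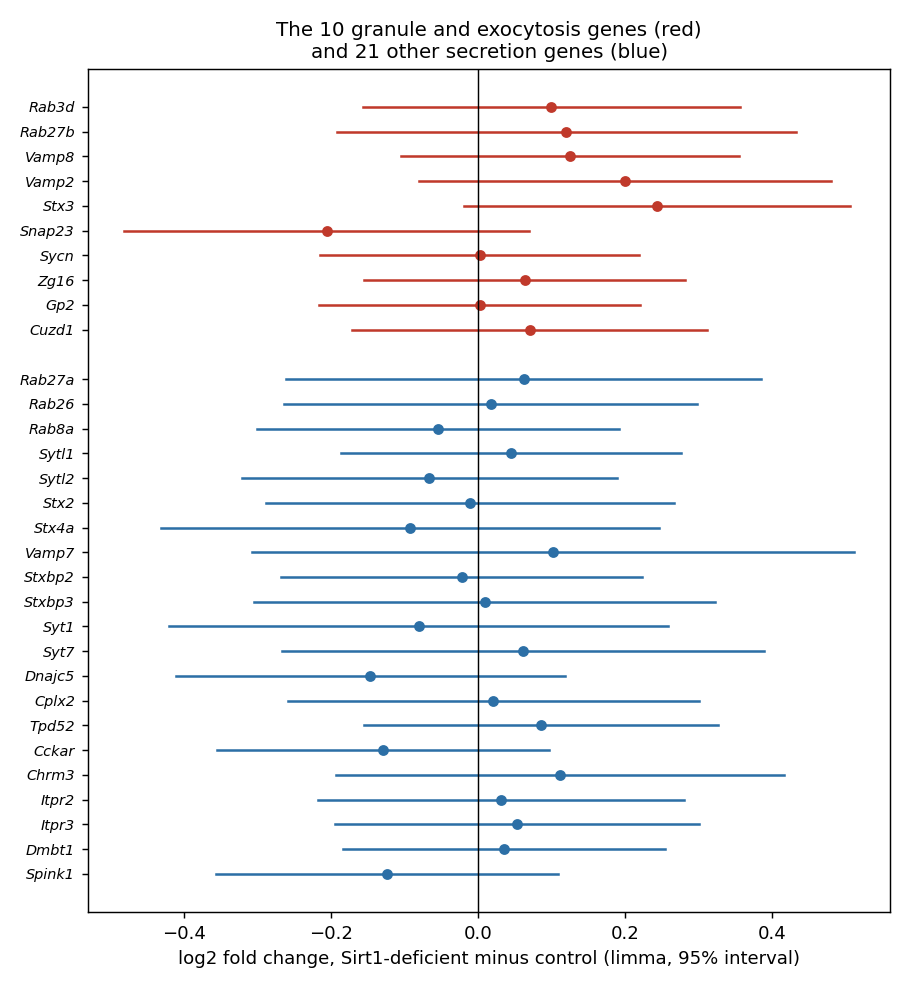
Log2 fold changes (horizontal, Sirt1-deficient minus control) with 95% confidence intervals from limma for the 10 granule and exocytosis genes (red) and 21 other genes of acinar secretion (blue), picked after the values were known and none of them among the genes that passed. Every interval includes 0, and that of Stx3, from 0.987-fold to 1.42-fold, comes closest to leaving it.

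As a group, 9 of the 10 genes had a positive fold change, as did 45.1% of all genes tested. So did 14 of 16 digestive enzyme genes, 10 of 13 other granule protein genes and 9 of 13 acinar transcription factors and identity genes. Among the 94 other secretion genes of the wider lists, which hold those granule protein genes, 53 did. The tally was 7 of 10 with array medians subtracted, after a second quantile normalization or when scaled to acinar transcription factors and identity genes, since Sycn and Gp2 turned negative there. Their median log2 fold change was 0.085, beside a median of -0.017 over all genes. The median was 0.023 without the Sirt1-deficient mouse 3, and 0.044 under that last scaling. The groups did not overlap in 3 of the 10, all higher in Sirt1-deficient mice. They did not overlap in 11.7% of all genes and were higher without overlap in 5.23%. Nor did they overlap in 6 of the 16 digestive enzyme genes, 5 of them higher. The same held for 4 of the 13 other granule protein genes and 2 of the 13 identity genes, all higher. In the 94 other secretion genes it held for 14, 7 of them higher. The brightest genes varied less between pancreata than most genes, so a smaller shift can separate their groups. No share was taken over equally bright genes. Averaged over the 10 genes after centring each on its own mean, the arrays read -0.034, -0.071 and -0.0030 in control mice and 0.031, -0.0037 and 0.081 in Sirt1-deficient mice. The group ranges of this average met at the control mouse 3 and the Sirt1-deficient mouse 2. The cargo genes alone had a median of 0.033 and the SNARE genes of 0.16.

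The tissue itself was checked against markers, since in RNA of a whole organ fewer cells of a type and less RNA per cell cannot be told apart. Sirt1, the targeted gene, read 5.84, 5.78 and 5.80 in control mice and 5.59, 5.69 and 5.83 in Sirt1-deficient mice, a difference of -0.11 (standard error 0.11, limma p = 0.343, exact permutation p = 0.3). Its cluster does not separate exon 4, so it does not check the genotype. The study reports a lower Sirt1 transcript level by RT-qPCR and a shortened protein in total pancreas of such mice. The lower level did not pass on these arrays, and why was not tested. Cpa1, which encodes carboxypeptidase A1 of the acinar cell, was at 13.68 in control mice and 13.69 in Sirt1-deficient mice. Of 16 measured digestive enzyme genes none passed, with a median log2 fold change of 0.031, and of 13 acinar transcription factors and identity genes none passed, with a median of 0.031. The enzyme list had mean levels of 12.47 to 12.52 in control mice and 12.53 to 12.55 in Sirt1-deficient mice. Cpa1 was as close to the top of the array scale as the cargo genes. Whether brightness hid a difference in the enzyme genes was not tested. Of 14 islet markers 3 were lower (Ppy, Slc2a2 and Isl1) and none was higher, with a median of -0.31. Of all genes tested, 0.888% were lower and 0.739% higher at the same threshold. The mean level of the islet list was 7.08 to 7.46 in control mice and 6.92 to 7.14 in Sirt1-deficient mice, and its hormone genes Ins2 and Gcg were well above the olfactory receptor limit. The islet list was not lower throughout. Ins2, Pdx1, Nkx6-1 and Mafa had log2 fold changes of 0.060, 0.063, -0.030 and -0.056, while 11 of the 14 markers had a negative one. Ins2 averaged 7.73 in control mice and 7.79 in Sirt1-deficient mice, below Gcg at 10.49 and 9.96, and Ins1 was not measured. How well the Ins2 cluster reports insulin RNA was not tested. Vamp2, which islets also use, had a positive difference. Of 8 endothelial markers 1 was higher and none lower, with mean levels of 6.13 to 6.31 in control mice and 6.39 to 6.46 in Sirt1-deficient mice. Of 13 immune markers, 10 fibroblast and stellate markers, 6 duct markers and 6 adipocyte markers none passed. The median log2 fold change was -0.14 for the immune list, where 12 of 13 markers had a negative difference, and -0.17 for the fibroblast and stellate list, where 9 of 10 had one. It was -0.059 for the duct list and 0.053 for the adipocyte list. Their mean levels overlapped between the groups. Snap23 and Vamp8 are also used by immune and other cells. The immune list had mean levels of 4.90 to 4.97 in control mice and 4.70 to 4.96 in Sirt1-deficient mice. Only 6 of its 13 markers read above the olfactory receptor limit, and Ptprc was not among them. Above it were 4 of 6 duct markers, 4 of 6 adipocyte markers and all 10 fibroblast and stellate markers. The part of any of these cell types in the values of the 10 genes was not tested.

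The wider secretion machinery was read from 5 lists that hold 94 measured genes besides the 10. Of these, 5 were higher, 2 were lower and 87 did not pass at the unadjusted threshold of 0.01; after adjustment over all genes none passed, and 8 had an unadjusted p under 0.05. The background is again 1.63% of all genes, with 0.739% higher and 0.888% lower. The lists were written with earlier results of these data known. The counts beside that background are therefore a description and not a test of the lists. Without the control mouse 1 or the Sirt1-deficient mouse 1 the count was 3. It was 5 when scaled to acinar identity genes or fitted over all transcript clusters, where Aqp8 and Rph3al fell short. Over the 94 genes the median log2 fold change was 0.025.

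**Figure D4:**
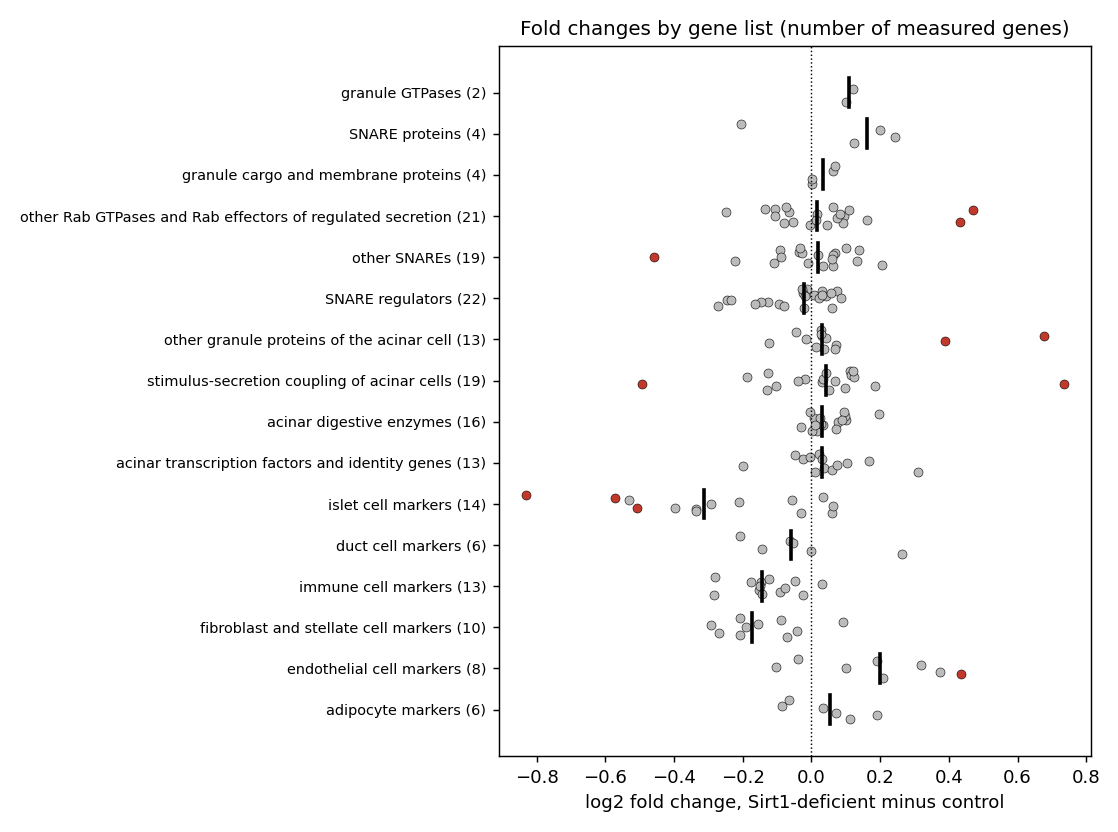
Log2 fold changes (horizontal, Sirt1-deficient minus control) of every measured gene in each list, with the number of genes in parentheses. Red points passed at the unadjusted threshold of 0.01 and black bars mark the median of each list; the top 3 rows, which hold the 10 granule and exocytosis genes, have no red point.

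A further 21 genes that work with the 10, or in acinar secretion, were picked for their roles after the values were known. The genes that passed are described separately, among them the Rab effector gene Rph3al and the receptor gene Chrm1, so that none of these 21 passed follows from the choice. Among the GTPases, Rab27a, the close relative of Rab27b, had a log2 fold change of 0.062 (95% interval -0.26 to 0.38), and Rab26, a granule GTPase that depends on the acinar factor Bhlha15, of 0.017 (-0.26 to 0.30). Bhlha15 itself, which promotes granule formation and was read with the acinar identity genes, had one of -0.20 (standard error 0.12, limma p = 0.124, exact permutation p = 0.3). Stxbp2, which binds Stx3 and clears the way for fusion, had a difference of -0.022 (95% interval -0.27 to 0.22). Sytl1, an effector of Rab27 on the granule, had one of 0.045, and Dnajc5, a chaperone of the granule surface, one of -0.15. Vamp7, the R-SNARE of lysosome-related vesicles, read 7.61 in the control mouse 2 and 8.26 and 8.27 in the other control mice, with a difference of 0.10 (standard error 0.18). Of the granule contents, Dmbt1, which encodes a large glycoprotein, had a difference of 0.036 and the trypsin inhibitor gene Spink1 one of -0.12.

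Of the receptors and calcium channels that start secretion, 4 were among these 21. Cckar, the cholecystokinin receptor, read 12.08, 12.02 and 12.03 in control mice and 11.84, 11.93 and 11.97 in Sirt1-deficient mice. Those groups did not overlap, and the difference was -0.13 (standard error 0.10, 95% interval -0.35 to 0.096, limma p = 0.228, exact permutation p = 0.1). Chrm3, the main muscarinic receptor of the acinar cell, had a difference of 0.11 (95% interval -0.19 to 0.42). The inositol trisphosphate receptors Itpr2 and Itpr3, through which calcium leaves the ER, had differences of 0.032 and 0.052.

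The 7 genes of the wider lists that passed encode a zinc transporter, a water channel, a pair of Rab effectors, a Golgi SNARE, a receptor and a calcium pump. Slc30a2 encodes the zinc transporter ZnT2, which loads zinc into zymogen granules. It read 6.13, 6.19 and 6.20 in control mice and 6.98, 6.59 and 6.98 in Sirt1-deficient mice. The groups were clearly apart, with a log2 fold change of 0.68 (1.6-fold, standard error 0.13; limma p = 0.000458, adjusted p = 0.236, exact permutation p = 0.1). It passed with any single array left out. Aqp8, the water channel of the apical acinar membrane, read 7.52, 7.42 and 7.41 in control mice and 7.76, 8.0 and 7.74 in Sirt1-deficient mice. Its log2 fold change was 0.39 (standard error 0.11; limma p = 0.00676, exact permutation p = 0.1). With 1 array left out this call held only without Sirt1-deficient mouse 3, where the log2 fold change was 0.43, and the value was smallest without Sirt1-deficient mouse 2, at 0.31. Aqp8 also fell short with the replicate number as a block, with array medians subtracted, when scaled to acinar identity genes (0.35) and over all transcript clusters.

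Both Rab effectors that passed were higher. Rph3al encodes Noc2, an effector of Rab3 and Rab27 needed for normal exocrine granule release in mice. Its values were 6.44, 6.45 and 6.64 in control mice and 7.09, 6.77 and 6.97 in Sirt1-deficient mice. The groups did not overlap, and the log2 fold change was 0.43 (standard error 0.12, limma p = 0.00566, exact permutation p = 0.1). With 1 array left out Rph3al passed only when control mouse 3 (0.50) or Sirt1-deficient mouse 2 (0.52) was the one removed, and the smallest log2 fold change was 0.36, without Sirt1-deficient mouse 1. It also fell short when scaled to acinar identity genes (0.39) and over all transcript clusters. Mlph, which encodes melanophilin, a Rab27a effector known from melanosome transport, read 5.75, 5.93 and 5.97 in control mice and 6.23, 6.30 and 6.51 in Sirt1-deficient mice. Its log2 fold change was 0.47 (standard error 0.12; limma p = 0.00304, exact permutation p = 0.1). It did not pass without control mouse 1 (log2 fold change 0.40) or without Sirt1-deficient mouse 3 (0.39).

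**Figure D5:**
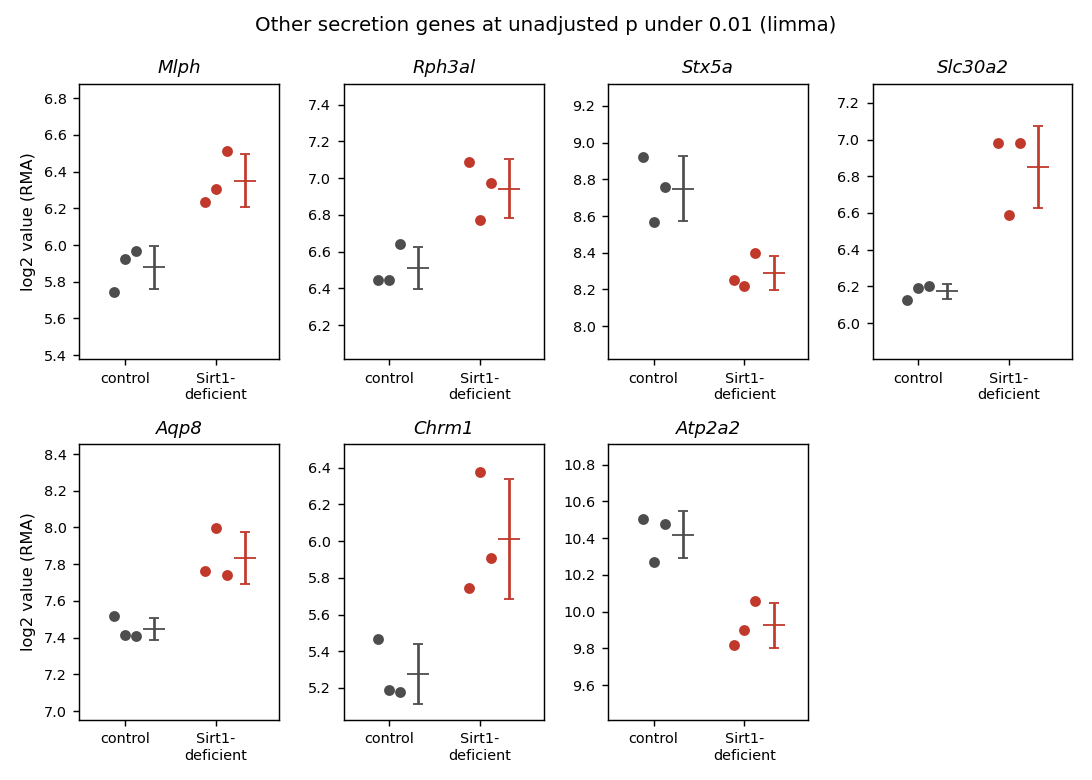
Log2 expression values (RMA, vertical axis) of the 7 other secretion genes that passed at an unadjusted p under 0.01 from limma, in 3 control (grey) and 3 Sirt1-deficient (red) pancreata; each point is 1 pancreas and the bar beside the points is the mean with its SD (n = 3). In all 7 the groups do not overlap, with Slc30a2, Aqp8, Rph3al, Mlph and Chrm1 higher and Stx5a and Atp2a2 lower in Sirt1-deficient mice.

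Of the other 19 SNARE genes, Stx5a was lower and none was higher. It encodes syntaxin 5, which serves transport from the ER to the Golgi rather than the granule. It read 8.92, 8.57 and 8.76 in control mice and 8.25, 8.22 and 8.40 in Sirt1-deficient mice, a log2 fold change of -0.46 (standard error 0.12, limma p = 0.00424, exact permutation p = 0.1). With 1 array left out it passed only without control mouse 2 (-0.55) or Sirt1-deficient mouse 3 (-0.51), and the log2 fold change was closest to 0 without control mouse 1, at -0.37. The next SNARE by p was Vamp4, a trans-Golgi R-SNARE, with a difference of -0.22 (standard error 0.15, limma p = 0.169, exact permutation p = 0.3). None of 22 SNARE regulators passed. The lowest p among them were those of Cadps (-0.27; limma p = 0.0318), which primes dense-core granules of endocrine cells and neurons, and Syt4 (-0.25; limma p = 0.0503), a synaptotagmin, each with an exact permutation p of 0.1. Both read below the olfactory receptor limit in the mean of all arrays.

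In the coupling of stimulus to secretion, Chrm1 was higher and Atp2a2 was lower. Chrm1, the M1 muscarinic receptor, read 5.46, 5.19 and 5.18 in control mice and 5.75, 6.38 and 5.91 in Sirt1-deficient mice. Its log2 fold change was 0.73 (standard error 0.17, limma p = 0.00161, exact permutation p = 0.1), and it passed with any single array left out. With the mean of its clusters in place of the brightest, the change was 0.35 and did not pass. Atp2a2 encodes SERCA2, the pump that returns calcium to the ER after each stimulus. It read 10.51, 10.27 and 10.48 in control mice and 9.82, 9.90 and 10.06 in Sirt1-deficient mice. Every Sirt1-deficient value was below every control value, with a log2 fold change of -0.49 (1.41-fold lower, standard error 0.12; limma p = 0.00202, exact permutation p = 0.1). Without Sirt1-deficient mouse 1 it fell short of the threshold, at -0.44.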

How the data were processed

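The authors processed the GeneChip Mouse Gene 2.0 ST arrays with oligo and deposited log2 values from Robust Multi-array Average (RMA): background correction, quantile normalization to 1 common distribution and 1 summary value per transcript cluster. Versions of oligo and RMA are not given in the sources used. Of 41345 clusters, 23521 carried a single gene symbol, and the brightest cluster per gene was kept (22180 genes). The symbols of all 10 members matched RefSeq (GRCm38.p6) by gene ID. No genome build is named, so no coordinates are given. Genotypes were compared with limma 3.58.1 (lmFit and eBayes, R 4.3.3) without covariates, and the threshold was an unadjusted p under 0.01, as in the study's methods. Arrays correlated at 0.974 to 0.984, and their number limits the precision. The steps were run on simulated data with planted changes larger than any difference of the 10 genes. That run therefore does not bear on differences of their size.

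The members and the gene lists were chosen with earlier results of these data known. Named genes were all members, every other secretion gene that passed (at least 2 per list, by p), 2 markers per cell type, and partners picked for their roles. Listed genes without a cluster of their own were not used here. Alternatives varied scaling, the filter on dim genes (95th percentile of 1088 olfactory receptor genes), the variance model, array weights, a block for the replicate number, the choice of clusters, thresholds and single arrays left out. Single-probe intensities were not analysed here.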

Additional observations from a re-analysis of the deposited data

How the results depend on the processing

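No member passed the threshold of 0.01 under any alternative run, or after adjustment (limma). In the fit as reported none had an unadjusted p under 0.05, but Snap23 did when scaled to acinar identity genes, with array weights and without control mouse 2, and Stx3 with array weights and without Sirt1-deficient mouse 3. Of 151 member values under alternatives, 140 kept their direction. The others concern Sycn and Gp2, whose differences lie at 0. Sycn had a log2 fold change of -0.0084 with array medians subtracted, -0.012 after a second quantile normalization and -0.039 when scaled to acinar identity genes, and Gp2 had -0.0085, -0.019 and -0.039 there and -0.0078 with array weights. With 1 array left out, Sycn ran from -0.0047 to 0.012 and Gp2 from -0.017 to 0.022, the count of members that passed stayed at 0, and the median over the members ran from 0.023 to 0.126; scaled to acinar identity genes it was 0.044. That last scaling moved the median of all genes to -0.059. The other Rab3d cluster, read after seeing the data, gave 0.14 and did not pass. In the wider lists, 3 to 5 genes passed with 1 array left out and 0 after adjustment. Over all genes 361 passed, 248 to 472 with 1 array left out, 574 over all transcript clusters, 1477 at an unadjusted p under 0.05 and 3 after adjustment. The cause of these changes was not tested, except that the looser and stricter thresholds and the larger number of clusters set their counts by construction. The labels give same-numbered mice nothing in common but the number. The correlations of their deviations ran from -0.107 to 0.164. The control mice 2 and 3 matched the Sirt1-deficient mouse of their own number best, while the control mouse 1 matched mouse 3. With 3 mice per group these correlations cannot tell whether the numbers stand for a shared step. With the replicate block 373 genes and no member passed, and 6 genes of the wider lists, Aqp8 being the one lost. Whether brightness near the top of the scale hid a difference in Sycn, Zg16 or Gp2 was not tested.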
